A study of Mus musculus with 15 samples.

Results

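The genes described here were the 37 protein-coding integrin and laminin genes of the mouse, 11 laminin chains, 18 integrin alpha chains and 8 integrin beta chains, chosen by their symbols from the 56980 genes of a bulk RNA-seq table. Expression was measured in tibialis anterior (TA) muscle and heart of DBA/2J-mdx mice, which lack dystrophin and develop severe muscular dystrophy, after vehicle or dasatinib plus quercetin (D + Q), a combination given to clear senescent cells. TA came from 4 D + Q–treated mice (all labelled male) and 4 vehicle-treated mice (replicates 1 and 3 male, replicates 2 and 4 female), treated 2 times per week for 2 months from 3 months of age and collected at 5 months. Heart came from 3 D + Q–treated mice (replicates 1 and 2 labelled female, replicate 3 male) and 4 vehicle-treated mice (replicates 1 and 4 male, replicates 2 and 3 female), treated 2 times per week for 4 months from 12 months of age and collected at 16 months. All 15 mice carried the mdx genotype, and no dystrophin-positive group was part of the table. The comparisons asked whether D + Q changed these genes in TA and in heart, whether the change differed between the tissues, and how the genes differed between TA and heart.

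Laminins are basement membrane proteins built from an alpha, a beta and a gamma chain, and integrins are cell surface receptors built from an alpha and a beta chain. In striated muscle, laminin that contains the alpha chain of Lama2 surrounds each fibre and is held by dystroglycan, which dystrophin ties to the cytoskeleton, and by the integrin made from Itga7 and Itgb1. Both links protect the fibre membrane, and loss of Lama2 or Itga7 causes muscular dystrophy. Other integrins bind collagens or RGD-containing matrix proteins, activate latent TGF-beta, or serve adhesion of leukocytes and platelets.

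The values were TPM, which divide reads by transcript length and scale each library to the same total, so levels could be compared between genes, but the depth behind a value was unknown. Between 21830 and 25378 genes were above 0 per library. In heart the groups did not overlap, with 22579 to 22818 genes above 0 in D + Q and 24089 to 25378 in vehicle libraries. In TA they overlapped, with 21830 to 24146 in D + Q and 23956 to 24393 in vehicle libraries. All 7 skeletal muscle markers were higher in every TA library than in any heart library of the same treatment, and all 5 cardiac markers were higher in every heart library, so the tissue labels held. Heart D + Q replicate 2 held more Myh4, Tnnt3 and Mylpf (10.2, 21.5 and 13.2 TPM) than any other heart (at most 0.330, 1.77 and 1.20 TPM). Myh1 and Myh2 were also highest there, while Acta1 and Ckm lay within the range of the other hearts. The source of these transcripts was not tested. In heart, D + Q replicate 3 is labelled male but went against that label, with 47.2 TPM of Xist, beside 59.5 and 53.2 TPM in the D + Q hearts labelled female. It held 0.0159 TPM of the Y-linked Ddx3y, against 21.0 and 21.3 TPM in the male vehicle hearts. The D + Q hearts also held less of all 4 atrial markers in every library, with a summed level of 382 to 427 TPM against 862 to 4260.4 TPM in vehicle, and Myl7, the atrial myosin light chain, at 3.46 to 4.54 against 94.1 to 730.1 TPM. The 4 red cell markers were likewise lower in every D + Q heart (23.7 to 108 against 291 to 1082 TPM summed), and both ventricular markers were higher in every D + Q heart. The part of these differences in the heart results below was not tested, except where the values of a fit with the atrial markers are given. In bulk tissue, fewer cells of a type and less RNA per cell cannot be told apart.

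A gene was tested in a tissue where 3 or more of its mice reached 0.5 TPM, which 32 members did in TA and 31 in heart. Itga10 passed in TA alone. Lama1, Lamc3, Itga2, Itgad and Itgae passed in neither tissue. Their highest levels in any library were 0.0738 TPM for Lama1, 0.542 TPM for Lamc3, 0.999 TPM for Itga2, 0.279 TPM for Itgad and 0.338 TPM for Itgae. Together the 37 genes took 589.9 to 897 TPM per TA library and 568 to 639.9 TPM per heart library.

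Itgb1, the beta chain shared by most laminin, collagen and fibronectin receptors, was the most abundant member in all 15 libraries. It was at 264, 193, 204 and 256 TPM in D + Q–treated TA and 219, 242, 231 and 215 TPM in vehicle-treated TA, in the order of replicates 1 to 4. Heart held 166, 174 and 162 TPM in D + Q and 160.1, 168, 158 and 151 TPM in vehicle mice. Every TA library lay above every heart library, while the treatments overlapped within each tissue.

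Lamc1, the gamma chain of most basement membrane laminins, and Lamb2, a beta chain enriched at the neuromuscular junction and in vessel walls, took the next places in every library, in either order. Lamc1 was at 87.7, 73.5, 64.4 and 83.97 TPM in D + Q and 76.5, 86.6, 79.9 and 87.6 TPM in vehicle TA, and at 53.2, 56.5 and 55.7 TPM in D + Q and 60.8, 68.5, 55.2 and 57.4 TPM in vehicle heart. Lamb2 was at 70.2, 61.2, 56.97 and 83.2 TPM in D + Q and 78.8, 86.7, 67.1 and 59.8 TPM in vehicle TA, and at 88.96, 90.5 and 84.6 TPM in D + Q and 77.2, 95.3, 79.7 and 84.6 TPM in vehicle heart. The order of the pair was thus Lamb2 above Lamc1 in all 7 hearts, and Lamc1 above Lamb2 in 6 of the 8 TA libraries. Lama2 was at 55.2, 43.5, 46.6 and 50.5 TPM in D + Q and 51.8, 61.8, 49.2 and 48.7 TPM in vehicle TA, and at 33.7, 33.1 and 26.7 TPM in D + Q and 34.7, 30.5, 31.6 and 34.6 TPM in vehicle heart.

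The receptors of each class spread over a wide range of levels. Among laminin-binding integrins, Itga6, found on endothelium, satellite cells and nerve sheaths, was at 16.8 to 41.2 TPM in TA and 32.2 to 38.1 TPM in heart. Itga7, the laminin receptor alpha chain of muscle fibres, was at 26.3 to 40.9 and 19.4 to 28.4 TPM. Itga1, the most abundant collagen receptor alpha chain, was at 14.6, 14.5, 10.9 and 16.5 TPM in D + Q and 17.3, 23.2, 15.5 and 16.5 TPM in vehicle TA.

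In heart, Itga1 was at 19.7, 18.6 and 17.6 TPM in D + Q and 17.8, 19.3, 16.8 and 15.8 TPM in vehicle mice. Itgb5, a partner of Itgav that binds vitronectin, was the highest of the 9 RGD and other matrix receptor chains in 14 of the 15 libraries, all but D + Q TA replicate 1, at 33.05 to 42.9 TPM in D + Q and 31.7 to 45.5 TPM in vehicle TA, and at 23.5 to 32.9 and 27.2 to 35.9 TPM in the same groups of heart. Itgb6, another partner of Itgav that activates latent TGF-beta and is best known from epithelia, was at 18.5 to 31.7 TPM in TA and 5.13 to 10.9 TPM in heart. The 5 epithelial markers Epcam, Krt5, Krt14, Krt15 and Cdh1 summed to at most 0.610 TPM in any library, and Krt5 was listed at 0 in all 15.

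**Figure D1:**
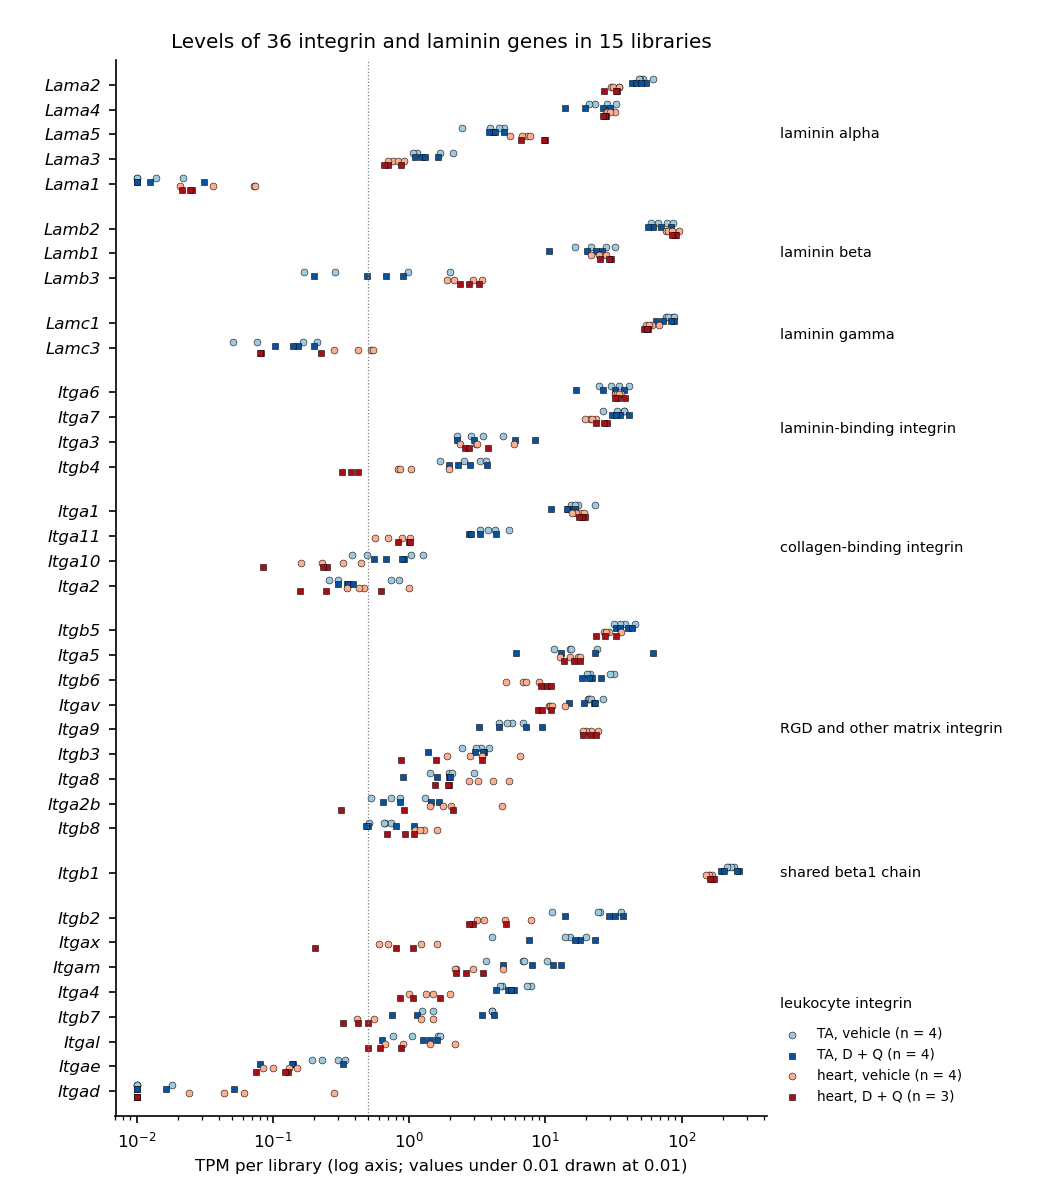
TPM of 36 of the 37 genes (log axis) in the 15 libraries, 1 point per mouse, with genes grouped by role and groups by colour; the dotted line marks 0.5 TPM. Itgb1 lies at 151 TPM or above in every library, and Lama1, Lamc3, Itgae, Itgad and Itga2 stay under 1 TPM.

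No member passed the test in TA with D + Q. A call needed an adjusted p under 0.05 and a log2 fold change beyond 0.5 in either direction. By limma, fitted to log2(TPM + 0.5) with a surrogate variable, none of the 32 members tested was called, where 0 of the 16298 genes tested were (0%). With its own count test and the same thresholds, the study reported more genes changed by D + Q in TA and in heart than were called here. At an unadjusted p under 0.05 stood 1 member, against 2.99% of all genes, and 0 members with limma without the trend (3.46% of all genes). The groups overlapped for all 32 members, while 1.52% of all genes had groups that did not overlap. The log2 fold change was negative for 23 members, with a median of -0.14, against a median of -0.07 over all genes, of which 66.4% were negative.

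Lama4, the laminin alpha chain of vessels and endoneurium, had the smallest p. It was at 29.8, 19.5, 13.95 and 26.4 TPM in D + Q and 22.96, 32.9, 28.1 and 20.8 TPM in vehicle TA. D + Q replicate 3 was lowest and vehicle replicate 2, a female, was highest. Its log2 fold change was -0.41 ± 0.17 (SE, adjusted p = 0.999 by limma), and it was the member at an unadjusted p under 0.05.

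The other members among the 5 smallest p in TA were Itga1, Itga6, Itgb3 and Lamb1, with log2 fold changes of -0.37, -0.36, -0.34 and -0.43 and an adjusted p of 0.999 each by limma. Itga6 was at 37.9, 32.4, 16.8 and 26.7 TPM in D + Q and 34.8, 41.2, 30.2 and 24.9 TPM in vehicle TA. Itgb3, the beta chain of the platelet fibrinogen receptor and of the vitronectin receptor, was at 3.53, 3.06, 1.38 and 3.48 and 3.35, 3.08, 3.89 and 2.45 TPM. Lamb1, a widely expressed laminin beta chain, was at 26.1, 20.1, 10.6 and 23.7 and 16.5, 32.7, 21.6 and 27.9 TPM.

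D + Q replicate 3 was the lowest TA library for all of Lama4, Itga1, Itga6, Itgb3 and Lamb1. Without it, no member stood at p under 0.05 (1.42% of all genes), and the log2 fold change of Lamb1 was 0.12. With labelled sex in place of the surrogate variable, or among males alone, that of Lamb1 was 0.01 and again no member stood at p under 0.05 (1.03% and 1.12% of all genes). Without vehicle replicate 3, a male, 7 of 32 members stood at p under 0.05, where 7.36% of all genes did, and none was called.

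Itga5, the fibronectin receptor alpha chain, spread widely in TA, at 61.9, 12.99, 6.11 and 23.2 TPM in D + Q and 15.2, 15.5, 23.97 and 11.6 TPM in vehicle mice. The D + Q group thus held both the highest and the lowest TA library, and the surrogate variable was highest in D + Q replicate 1 (0.70), vehicle replicate 3 (0.30) and D + Q replicate 4 (0.23). The leukocyte integrins split evenly, with 3 positive and 3 negative log2 fold changes between -0.44 (Itgb7) and 0.16 (Itgax). Of the 12 leukocyte markers, 11 had a higher mean and none lay wholly above in D + Q TA, with summed levels of 270.3 to 506 TPM against 251 to 462 TPM.

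In heart, D + Q again left no member past the test, and 8 of 31 stood at an unadjusted p under 0.05. In this comparison, with labelled sex in the limma model, 0.316% of the 16132 genes tested were called, and 17.6% stood at an unadjusted p under 0.05. Limma without the trend also gave 8 members (16.3% of all genes). The 8 were Itga8, Itgb4, Itga2b, Itgb3, Itgax and Itgb8 on the lower side and Itgb6 and Itga7 on the higher side, with adjusted p between 0.116 and 0.201, while 7.99% of all genes stood at p under 0.05 on the lower and 9.65% on the higher side. Of the 8, Itgb4 reached 0.5 TPM in vehicle hearts alone and so entered the test through the group where it was higher, and its test is not read as a result. The groups did not overlap for 6 members, below vehicle for Itga8, Itgb4, Itgb8 and Lama4 and above it for Itgb6 and Itga7. Over all genes, 15.2% had groups that did not overlap (5.57% below and 9.63% above vehicle). The separation of Itgb4 is likewise not read as a result, since the filter admitted the gene through the higher group. The median log2 fold change was -0.13 with 18 of 31 members negative, against -0.0025 and 50.5% over all genes. Itgb4 and Itgb7, both admitted through vehicle hearts alone, stay in these counts.

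**Figure D2:**
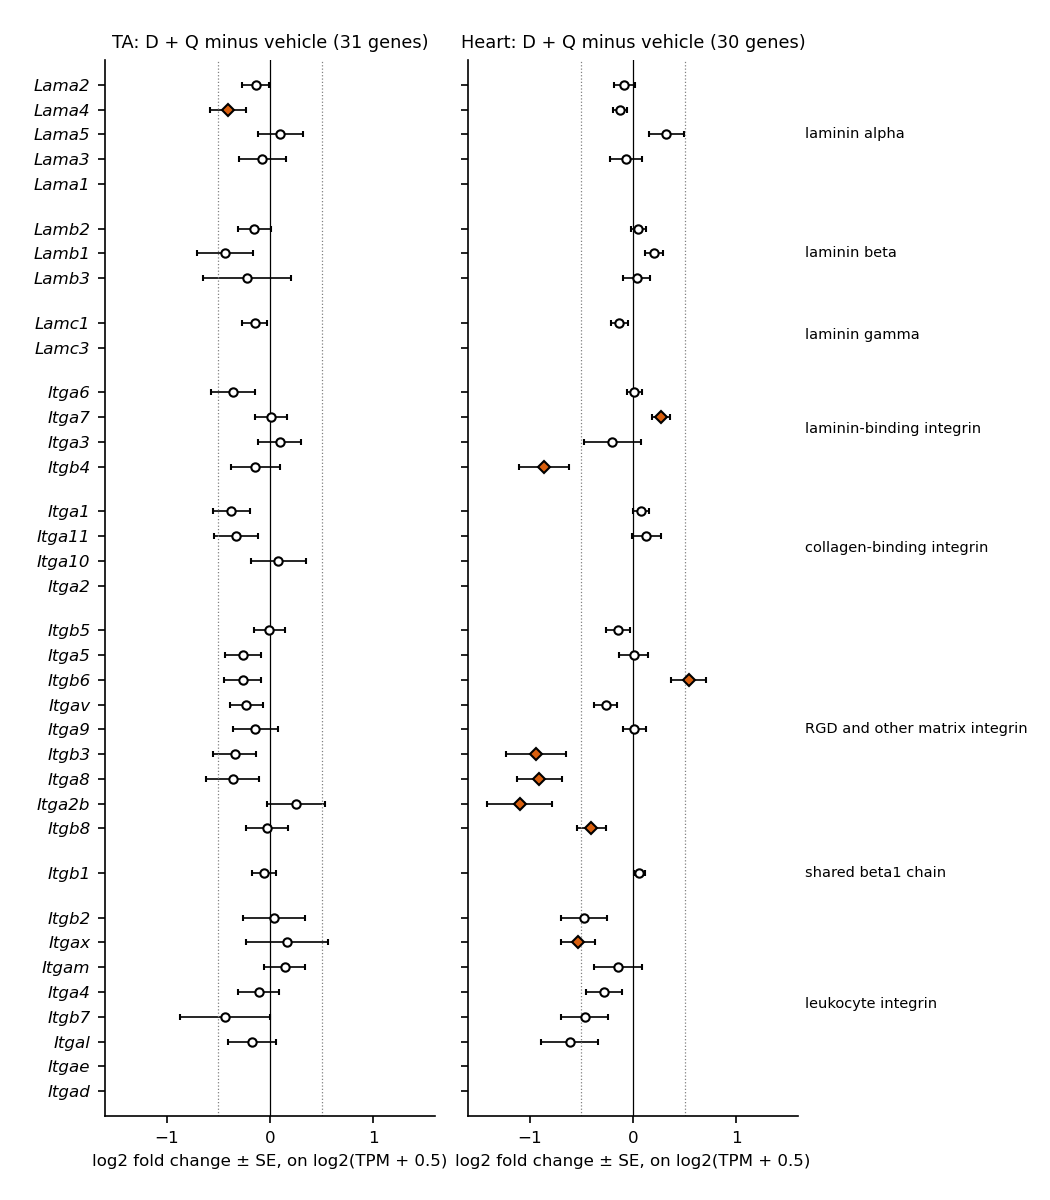
Log2 fold change ± SE of D + Q against vehicle for 31 of the 32 members tested in TA (left) and 30 of the 31 tested in heart (right), from limma on log2(TPM + 0.5); filled diamonds mark an unadjusted p under 0.05, dotted lines mark -0.5 and 0.5, and genes with no point were not tested. Lama4 alone is a diamond in TA, and 8 members are diamonds in heart, none past the adjusted threshold. Of these, Itgb4 entered the heart test through the vehicle hearts alone and is shown as a description.

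Itga8 (identifier ENSMUSG00000026768; GRCm39 chromosome 2, 12110900 to 12307214, minus strand) pairs with Itgb1, binds nephronectin and is found on fibroblasts and smooth muscle. It was at 1.96, 1.94 and 1.55 TPM in D + Q hearts and 4.11, 5.43, 2.73 and 3.23 TPM in vehicle hearts. All D + Q hearts lay below all vehicle hearts. The means were 1.82 ± 0.2304 (SD, n = 3) and 3.87 ± 1.19 (SD, n = 4) TPM. The log2 fold change was -0.91 ± 0.21 (SE), with adjusted p = 0.116 by limma. Without vehicle replicate 3 it was -1.14, and Itga8 was then called (adjusted p = 0.0391). Over the 7 leave-one-out fits it ran from -1.14 to -0.71, weakest without vehicle replicate 2, with adjusted p up to 0.361 by limma. Beside it, all 4 smooth muscle markers had a lower mean in D + Q hearts, 2 of them wholly below, with summed levels of 257 to 295 against 222 to 389.6 TPM, and all 6 fibroblast markers had a lower mean, 3 of them wholly below, with 444 to 522 against 555 to 795 TPM. Their part in the difference was not tested.

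Itgb4 (ENSMUSG00000020758; chromosome 11, 115865333 to 115899239, plus strand) pairs with Itga6 alone and anchors epithelial hemidesmosomes and nerve sheaths to laminin. It was at 0.377, 0.4198 and 0.3201 TPM in D + Q and 1.97, 0.833, 1.04 and 0.854 TPM in vehicle hearts. Every D + Q heart lay below every vehicle heart and under the 0.5 TPM of the filter, and vehicle replicate 1 was highest. The log2 difference of -0.87 is given as a description, since the filter admitted the gene through the vehicle hearts. Its partner Itga6 was at 34.3, 38.1 and 32.4 TPM in D + Q and 32.2, 33.4, 36.2 and 34.97 TPM in vehicle hearts, a log2 fold change of 0.01 ± 0.07 (SE). Of the 5 Schwann cell markers, 4 had a lower mean in D + Q hearts and 1 lay wholly below, and all 3 mesothelial markers had a lower mean (4.89 to 7.36 against 8.57 to 14.3 TPM summed), 1 of them wholly below. Their part in the difference was not tested.

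Itga2b (ENSMUSG00000034664; chromosome 11, 102341397 to 102360955, minus strand) and Itgb3 (ENSMUSG00000020689; chromosome 11, 104498826 to 104561302, plus strand) encode the chains of the platelet fibrinogen receptor, and Itgb3 also pairs with Itgav on other cells. Itga2b was at 0.919, 2.11 and 0.317 TPM in D + Q and 1.79, 4.77, 2.04 and 1.42 TPM in vehicle hearts. Itgb3 was at 1.57, 3.42 and 0.878 and 2.78, 6.51, 3.42 and 1.91 TPM in the same order. Both overlapped between the groups, since D + Q replicate 2 held more than vehicle replicate 4, and vehicle replicate 2 was highest for both. The log2 fold changes were -1.10 ± 0.32 (SE, adjusted p = 0.151 by limma) for Itga2b and -0.94 ± 0.29 (SE, adjusted p = 0.168) for Itgb3. The summed level of the 6 platelet markers was 25.5, 50.7 and 18.7 TPM in D + Q and 51.8, 84.9, 45.9 and 37.8 TPM in vehicle hearts. Of this, Pf4 alone made up 19.0, 21.7 and 17.0 and 19.2, 28.2, 20.8 and 19.7 TPM. All 6 had a lower mean with D + Q and 1 lay wholly below, and Ppbp, a platelet chemokine, was at 5.73, 24.8 and 1.24 and 27.7, 45.1, 20.7 and 15.6 TPM. Vehicle replicate 2 was highest and D + Q replicate 3 lowest in the summed platelet markers and in both genes. The part of the platelets in the difference was not tested.

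Itgax (ENSMUSG00000030789; chromosome 7, 127728668 to 127749829, plus strand) encodes CD11c, the alpha chain of a complement receptor of macrophages and dendritic cells. It was at 0.803, 1.06 and 0.202 TPM in D + Q and 0.695, 1.22, 1.59 and 0.601 TPM in vehicle hearts. The groups overlapped, and D + Q replicate 3 was lowest. The log2 fold change was -0.53 ± 0.16 (SE), with adjusted p = 0.171 by limma. The log2 fold changes of the other leukocyte integrins tested in heart were -0.61 for Itgal, -0.48 for Itgb2, -0.28 for Itga4 and -0.14 for Itgam. With labelled sex none of them stood at p under 0.05, which did not hold in every other fit. Itgb7 reached 0.5 TPM in vehicle hearts alone, so its sign is not counted with them. Itgam turned positive without D + Q replicate 1 (0.06) and without vehicle replicate 2 (0.08). With the atrial markers as covariate all of Itgax, Itgal, Itgb2, Itga4 and Itgam were positive (0.20 to 1.79, with SE of 0.60 to 0.91). In that fit Itgal had 0.20 ± 0.91 and Itga4 0.74 ± 0.65 (SE). With sex read from expression the same genes were all negative (-0.78 for Itgb2 to -0.41 for Itgam). They were also negative with the replicate block in place of sex (-0.74 for Itgal to -0.19 for Itgam). Of the 12 leukocyte markers, 11 had a lower mean in D + Q hearts and none lay wholly below, with summed levels of 162 to 246 against 184 to 262 TPM. Their part was not tested.

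Itgb8 (ENSMUSG00000025321; chromosome 12, 119121748 to 119202584, minus strand) pairs with Itgav and, like Itgb6, frees TGF-beta from its latent form. It was at 0.927, 1.09 and 0.694 TPM in D + Q and 1.11, 1.61, 1.28 and 1.203 TPM in vehicle hearts. The highest D + Q heart, replicate 2, lay just under the lowest vehicle heart, replicate 1. For Itgb8, the log2 fold change was -0.41 ± 0.14 (SE), with adjusted p = 0.201 by limma. Itgav itself had a log2 fold change of -0.27 ± 0.11 (SE, adjusted p = 0.288 by limma).

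Itgb6 (ENSMUSG00000026971; chromosome 2, 60428636 to 60553035, minus strand) and Itga7 (ENSMUSG00000025348; chromosome 10, 128769621 to 128794169, plus strand) were the pair on the higher side. Itgb6 was at 10.4, 9.28 and 10.9 TPM in D + Q and 6.83, 5.13, 8.95 and 7.27 TPM in vehicle hearts. Itga7 was at 28.4, 27.1 and 23.7 and 21.4, 19.4, 23.5 and 21.9 TPM in the same order. For both genes every D + Q heart lay above every vehicle heart. The log2 fold changes were 0.54 ± 0.17 (SE, adjusted p = 0.176 by limma) and 0.27 ± 0.09 (SE, adjusted p = 0.186). Without vehicle replicate 3, that of Itgb6 was 0.74 and Itgb6 was called (adjusted p = 0.0479). Over the 7 leave-one-out fits it ran from 0.36 to 0.74, weakest without vehicle replicate 2, with adjusted p up to 0.467 by limma. Beside them, 4 of the 5 cardiac muscle markers lay wholly above vehicle in D + Q hearts, with summed levels of 17031 to 18007 against 13837 to 15149 TPM, and their part was not tested. All 5 epithelial markers were at or under 0.107 TPM in the D + Q hearts, and Krt5 and Krt15 were at 0 there.

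No laminin stood at an unadjusted p under 0.05 in heart. Lama4 was at 28.02, 27.5 and 26.6 TPM in D + Q and 28.1, 32.7, 28.6 and 29.7 TPM in vehicle hearts, a log2 fold change of -0.13 ± 0.07 (SE, adjusted p = 0.369 by limma). The 9 laminins tested had log2 fold changes from -0.13 (Lamc1) to 0.32 (Lama5), and 5 of them were positive. Itgb1 had 0.06 ± 0.05 (SE), and the collagen receptor chain Itga1 0.08 ± 0.08.

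**Figure D3:**
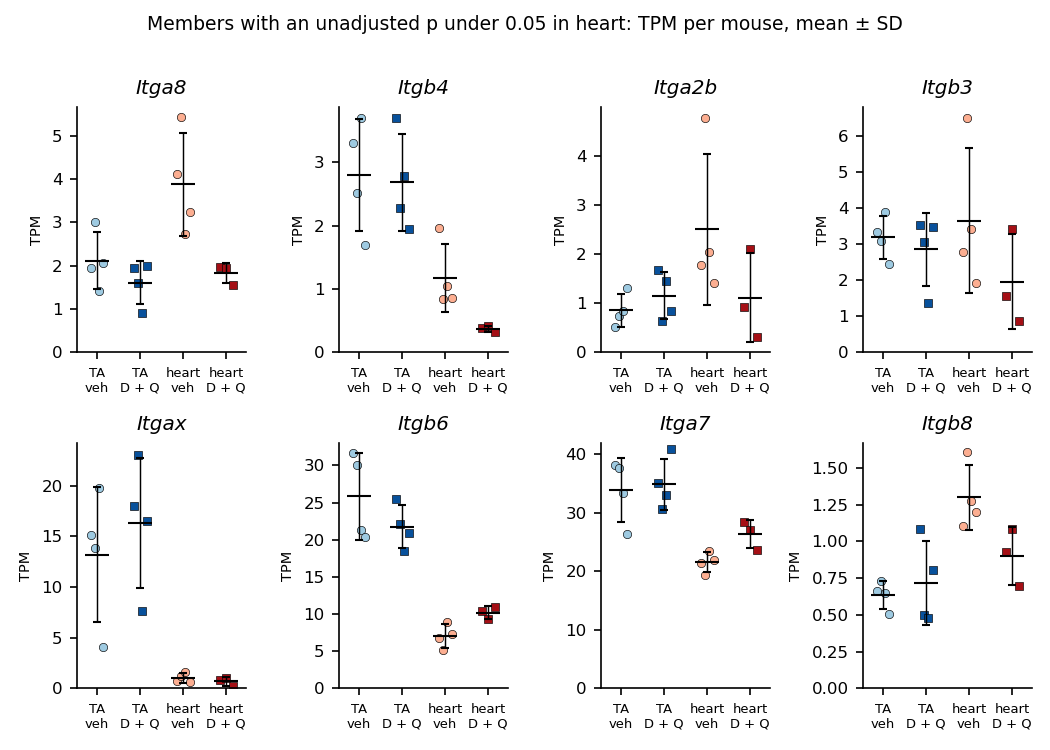
TPM per mouse (points) with group mean ± SD (bars) for the 8 members at an unadjusted p under 0.05 in heart, in vehicle (veh) and D + Q groups of TA and heart. In heart, D + Q and vehicle do not overlap for Itga8, Itgb4, Itgb6, Itga7 and Itgb8, and overlap for Itga2b, Itgb3 and Itgax. Itgb4 passed the filter through vehicle hearts alone, so its separation is a description.

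The heart values depended on the covariate and on single libraries. With sex read from expression, 11 of 31 members stood at p under 0.05 (13.5% of all genes), and without a covariate there were 4 (15.3%). Itgax was not among them in either fit (unadjusted p = 0.060 and 0.26 by limma). Itgb2 had an unadjusted p of 0.024 by limma with sex read from expression. Without D + Q replicate 3 there were 3 (12% of all genes), and without vehicle replicate 3 there were 14 (20.5%). Without the filter there were 10 of all 37 (12.3% of all genes). With the atrial markers as covariate in place of sex, 6 members stood at p under 0.05 (9.59% of all genes), none was called, and Itga2b (1.33), Itgb3 (1.42), Itgax (1.21) and Itgb8 (0.35) turned to positive log2 fold changes, while Itga8 (-0.49), Itgb4 (-2.16), Itgb6 (0.14) and Itga7 (0.24) kept their sign. The atrial markers did not overlap between the groups, so in that fit the treatment and the atrial markers could hardly be told apart.

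The effect of D + Q did not differ between TA and heart for any member past the threshold. In 1 limma fit of the 4 group means over the 14914 genes tested in both tissues, 0.0335% of genes were called for the difference of the effects, and none of the 31 members. At an unadjusted p under 0.05 stood 4 members, against 4.93% of all genes. They were Itgb6 (difference of log2 fold changes, TA minus heart, -0.75 ± 0.25 SE, adjusted p = 0.841), Itgb4 (0.85 ± 0.35, adjusted p = 0.974), Itga2b (1.21 ± 0.53, adjusted p = 0.974) and Itga1 (-0.44 ± 0.20, adjusted p = 0.974). The value of Itgb4 rests on its heart difference and is likewise a description.

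In TA, the libraries behind these differences ran as follows. Itgb6 was at 25.5, 22.2, 18.5 and 20.9 TPM in D + Q and 31.7, 30.03, 21.3 and 20.4 TPM in vehicle TA. Itgb4 was at 3.7, 2.28, 2.79 and 1.95 and 3.29, 2.51, 3.69 and 1.69 TPM, and Itga2b at 1.67, 0.645, 1.46 and 0.851 and 0.521, 0.739, 0.851 and 1.303 TPM. All overlapped between the TA groups. The log2 fold changes in TA were -0.26, -0.14 and 0.25, against 0.54, -0.87 and -1.10 in heart, each from the fit of its own tissue.

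TA and heart differed in 19 of the 31 members in vehicle mice and in 14 in D + Q mice. Since the TA mice were 5 and the heart mice 16 months old and were treated for 2 and 4 months, tissue, age and duration cannot be told apart. In vehicle mice, 13 of the 31 members were called higher in TA, where 22.3% of all genes were, and 6 higher in heart, where 11.4% were (33.7% in either direction). In D + Q mice, 11 were called higher in TA (20.9% of all genes) and 3 higher in heart (13.8%, and 34.7% in either direction). The median of all genes was shifted to TA by 0.17 in vehicle and 0.10 in D + Q mice on the log2 scale, and by 0.0039 and 0.0036 after median-of-ratios scaling, so the values below carry this shift. After that scaling, the members split into 8 higher in TA and 6 higher in heart in vehicle mice, with 2271 and 2421 of all genes against 3332 and 1697 before, and into 10 and 5 in D + Q mice, with 2597 and 2628 of all genes against 3118 and 2052.

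The groups of the 2 tissues did not overlap for 15 members in vehicle mice (39.1% of all genes) and 20 in D + Q mice (45.6% of all genes). Higher in TA in vehicle and in D + Q mice alike, with or without the scaling, were Itga11, Itgb6, Itga4, Itgax, Itgav, Itgb2, Itgb4 and Itgam. Itga9, Lamb3 and Lama5 were higher in heart under the same 4 conditions. Itgb1 and Itga7 were called higher in TA in vehicle mice without the scaling alone. Itgb8, Itga8 and Itga2b were called higher in heart in vehicle mice, with or without the scaling, and not in D + Q mice, and the test of the difference between the treatments called none of the 3.

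Itga11, a collagen receptor alpha chain of fibroblasts, was at 3.78, 5.42, 3.32 and 4.28 TPM in vehicle TA and 0.698, 1.01, 0.894 and 0.562 TPM in vehicle heart. All 15 libraries separated the tissues. The log2 difference was 1.86 ± 0.18 (SE) in vehicle mice (adjusted p = 4.72e-07) and 1.38 ± 0.19 in D + Q mice (adjusted p = 2.88e-05). Of the 6 fibroblast markers, 5 had a higher mean in TA, 3 of them wholly above in vehicle mice, with summed levels of 965 to 1547 against 555 to 795 TPM, and their part was not tested. For Itgb6, the log2 difference was 1.80 ± 0.17 in vehicle and 1.05 ± 0.19 in D + Q mice, with every TA library at 18.5 TPM or more and every heart at 10.9 TPM or less. Itgav, its partner, was at 14.97 to 26.6 TPM in TA and 8.88 to 13.95 TPM in heart, also without overlap.

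Itga9, a receptor chain for tenascin-C and osteopontin, went the other way. It was at 4.61, 5.698, 6.89 and 5.19 TPM in vehicle TA and 24.4, 21.5, 19.7 and 18.9 TPM in vehicle heart, and at 7.195, 4.59, 3.24 and 9.397 and 18.8, 23.4 and 21.3 TPM in D + Q mice. No TA library came above 9.40 TPM and no heart fell under 18.8 TPM. The log2 difference, TA minus heart, was -1.83 ± 0.23 (SE) in vehicle and -1.81 ± 0.25 in D + Q mice (adjusted p = 1.08e-05 and 2.97e-05 by limma). Lamb3, a chain of epithelial laminin, had -1.36 ± 0.35 and -1.66 ± 0.37, at 0.168 to 1.99 TPM in TA and 1.89 to 3.44 TPM in heart. The vehicle libraries of Lamb3 overlapped in 1 female, TA replicate 2, which was at 1.99 TPM.

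The laminin alpha chains were used in different shares. Lama2 took 59.7 to 70.9% of the summed laminin alpha TPM in TA and 43.8 to 48.96% in heart. Lama4 took 21.2 to 34.2% and 38.7 to 46.98%. Lama5, the alpha chain of vessel and epithelial basement membranes, took 3.31 to 6.24% and 7.92 to 13.7%. None of these ranges overlapped between the tissues, while the treatments overlapped within TA for all 3.

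In heart, Lama5 took 13.7, 13.7 and 10.97% with D + Q and 10.3, 7.92, 9.99 and 10.6% with vehicle, with every D + Q heart above the vehicle range of 7.92 to 10.6%. The share was not tested and was named after its values were seen. In TPM, Lama5 overlapped between the 2 heart groups, with a log2 fold change of 0.32 ± 0.17 (SE, adjusted p = 0.376 by limma). As levels, Lama2 was higher in TA by 0.67 ± 0.11 (SE) in vehicle and 0.64 ± 0.12 in D + Q mice on the log2 scale, and was not called in vehicle mice after median-of-ratios scaling (0.49). Lama5 was lower in TA, by -0.74 ± 0.19 and -0.93 ± 0.20, and Lama4 had -0.20 ± 0.19 and -0.34 ± 0.21, which were not called. All 7 endothelial markers had a lower mean in TA than in heart, 5 of them wholly below in vehicle mice, with summed levels of 158 to 248 against 257 to 315 TPM, and their part in the laminin shares was not tested.

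**Figure D4:**
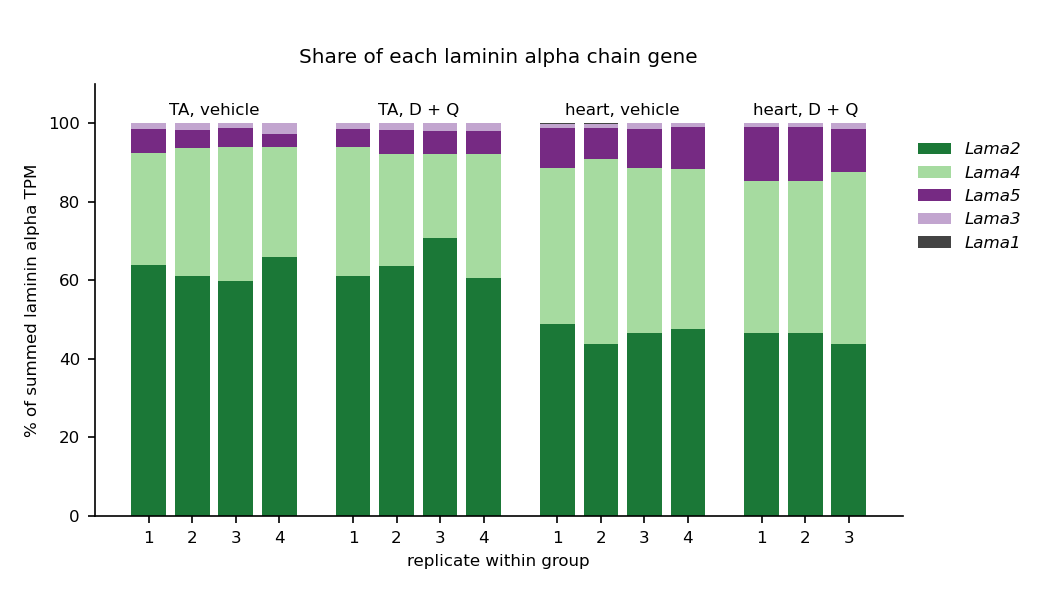
Share of each laminin alpha chain gene in the summed TPM of Lama1 to Lama5 (percent), 1 stacked bar per mouse. Lama2 takes 59.7% or more in every TA library and 49.0% or less in every heart.

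The leukocyte integrins were higher in TA. Of the 6 tested, 5 were called higher in TA in vehicle and in D + Q mice, where 22.3% and 20.9% of all genes were, with a median log2 difference of 1.44 and 1.65, and Itgal was not called in either. Itgb2, the beta chain that macrophages, neutrophils and lymphocytes share, was at 32.2, 37.4, 13.9 and 29.5 TPM in D + Q and 25.3, 24.5, 36.1 and 11.1 TPM in vehicle TA. In heart it was at 2.92, 5.16 and 2.74 TPM in D + Q and 3.14, 7.91, 5.08 and 3.53 TPM in vehicle. Every TA library lay above every heart, and D + Q replicate 3 and vehicle replicate 4 were the lowest of TA. The log2 difference was 2.16 ± 0.37 (SE, adjusted p = 0.000203 by limma) in vehicle and 2.77 ± 0.40 (adjusted p = 4.3e-05) in D + Q mice.

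Itgax had log2 differences of 3.02 ± 0.43 and 3.80 ± 0.47 (SE), and Itga4, the alpha chain of the VCAM-1 receptor, of 1.76 ± 0.21 and 1.79 ± 0.23. Itgam, the CD11b chain of macrophages and neutrophils, had 1.06 ± 0.32 and 1.52 ± 0.35. Itgb7, which pairs with Itga4 on gut-homing lymphocytes, had 1.11 ± 0.43 and 1.44 ± 0.47, and was not called in vehicle mice after median-of-ratios scaling. Its difference in D + Q mice, like that of Itgb4, is a description, since it reached 0.5 TPM in vehicle hearts alone. Summed, the 8 leukocyte integrins took 28.4 to 79.9 TPM in TA and 7.42 to 18.8 TPM in heart. The 12 leukocyte markers all had a higher mean in TA, 8 of them wholly above in vehicle and 8 in D + Q mice, with summed levels of 251 to 506 TPM in TA and 162 to 262 TPM in heart. The 5 T cell markers summed to less in TA (0.415 to 1.22 TPM) than in heart (1.51 to 4.98 TPM). The part of leukocyte content in these differences was not tested.

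**Figure D5:**
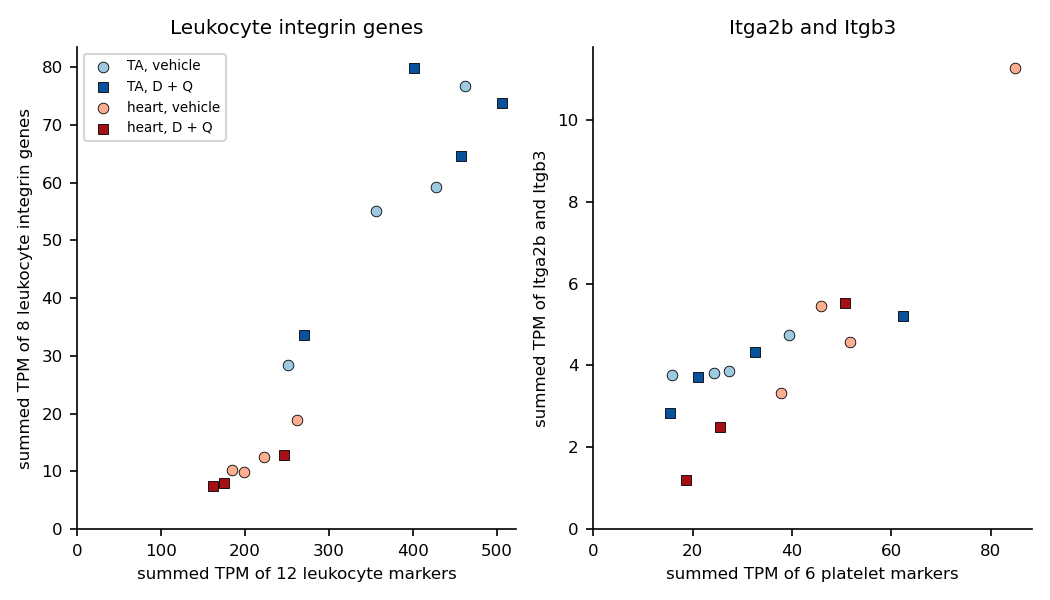
Left, summed TPM of the 8 leukocyte integrin genes against the summed TPM of 12 leukocyte markers; right, Itga2b plus Itgb3 against 6 platelet markers; 1 point per mouse, groups by colour. TA libraries lie at 28.4 to 79.9 TPM of leukocyte integrins and hearts at 7.42 to 18.8 TPM, and the vehicle heart at the top right holds 11.3 TPM of Itga2b and Itgb3 beside 84.9 TPM of platelet markers. In TA, Pf4 alone is at 14.9 to 59.3 TPM, and the 6 platelet markers sum to 15.5 to 62.4 TPM, so the TA positions on that axis are largely those of Pf4.

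Around the receptors and their ligands, 2 further lists were counted. Of 32 adhesion adaptor and signalling genes, which link integrins to actin, 31 were tested in each tissue and none was called. Over all genes, 0% were called in TA and 0.316% in heart. At an unadjusted p under 0.05 by limma stood 1 of the 31 in TA, against 2.99% of all genes. In heart, 4 stood there on the higher and 7 on the lower side, against 9.65% and 7.99% of all genes. The heart groups did not overlap for 3 genes above and 2 below vehicle, against 9.63% and 5.57% of all genes. In TA, Src, Parvg and Fyn had the smallest p, with log2 fold changes of -0.57 ± 0.20, -0.47 ± 0.23 and -0.30 ± 0.18 (SE) and an adjusted p of 0.999 each by limma. In heart they were the actin-linked proteins Tns3, Flna and Zyx, with -0.48 ± 0.08, -0.39 ± 0.08 and -0.35 ± 0.08 (SE, adjusted p = 0.0823, 0.098 and 0.116). Tns3 was at 7.595, 8.07 and 7.79 TPM in D + Q and 10.04, 11.8, 12.04 and 9.91 TPM in vehicle hearts, without overlap. The medians over the list were -0.06 in TA and -0.01 in heart, against -0.07 and -0.0025 over all genes.

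Of 20 basement membrane partners and other laminin receptors, 19 were tested in TA and 20 in heart, and none was called (0% and 0.316% of all genes). At an unadjusted p under 0.05 by limma stood 0 in TA, against 2.99% of all genes. In heart, 3 stood there on the higher and 5 on the lower side, against 9.65% and 7.99% of all genes. The heart groups did not overlap for 3 genes above and 4 below vehicle, against 9.63% and 5.57% of all genes. In TA, Col4a1 and Col15a1, both basement membrane collagens, and Nid1, which joins laminin to collagen, had log2 fold changes of -0.31 ± 0.17, -0.38 ± 0.24 and -0.20 ± 0.13 (SE, adjusted p = 0.999 each by limma). In heart, Dag1, which encodes dystroglycan, was at 128, 132 and 131 TPM in D + Q and 102, 103, 111 and 94.3 TPM in vehicle hearts. All D + Q hearts lay above, with a log2 fold change of 0.33 ± 0.06 (SE, adjusted p = 0.0922 by limma). Col4a2 had 0.26 ± 0.07 and Col4a6 -0.63 ± 0.17 (adjusted p = 0.122 and 0.144). The medians over the list were -0.16 in TA and -0.06 in heart.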

How the data were processed

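Frozen TA muscles and hearts gave RNA for bulk mRNA libraries. The authors trimmed reads with Trim Galore 0.6.10, quantified them with Salmon 1.10.3 against GRCm39, summarised transcripts per gene and deposited TPM, which sum to 1000000 in each library. The depth is unknown, and precision comes from the spread between mice only. The annotation release was not given in the sources used here.

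Members were found by symbol in GENCODE M39, where 56236 of the 56980 identifiers were present. Values of 1 member, included in the counts, are not reported here. Members and gene lists were chosen with earlier results of these data known. Genes that reached 0.5 TPM in 3 or more mice of a tissue were tested with limma 3.58.1 (R 4.3.3) on log2(TPM + 0.5), with a trend in the prior variance and p-values adjusted over all genes tested (Benjamini-Hochberg, two-sided). This scale understates changes of genes with low TPM. TA was fitted with 1 surrogate variable (5 rounds of re-weighting), heart with labelled sex, following the study's design, whose count test could not be run on TPM. TA and heart were compared in 1 fit of the 4 group means over genes passing in both tissues. A call needed an adjusted p under 0.05 and a log2 fold change beyond 0.5 in either direction. The text names members called, those at an unadjusted p under 0.05, the 5 smallest p in TA and in heart, the highest member of each role, and the 3 smallest p of each further list; other members, such as Itga5 in TA, were named after their values were seen.

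Alternatives were pseudocounts of 0.1 and 1, no filter or 1 TPM, other covariates, the replicate number as a block, median-of-ratios scaling, an untrended prior in limma, calls at any fold change, and leaving out each mouse. No libraries were identical, and correlations within groups were 0.977 to 0.991. The code was tested on simulated data, in which 200 genes were changed by a known amount. With a change of 1 on the log2 scale, 52 were recovered in TA, 123 in heart and 79 for the difference of the effects. With a change of 2, these were 169, 182 and 169. The absence of a call is thus not evidence that a gene did not change.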

Additional observations from a re-analysis of the deposited data

Results flagged for a closer look

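Of 92 combinations of a tested member and a group of 4 mice, 1 held a library whose gap to its nearest neighbour was too large a part of the group's range for Dixon's test at 95%, on the log2(TPM + 0.5) scale, where chance gives about 1 in 20. Itgb3 was at 1.38 TPM in D + Q TA replicate 3, against 3.06 to 3.53 TPM in the other 3. No member passed the test of a difference in the D + Q effect between TA and heart.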

How the results depend on the processing

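Over the alternatives run, the 10 counts of called members stayed within 1.5 times the reported count in 189 of 194 values. The counts in TA, in heart and for the difference of the effects were 0, and for them staying within that bound only means remaining at 0. Without heart vehicle replicate 3, 1 member was called higher (Itgb6) and 1 lower (Itga8) in heart; leaving out each mouse in turn gave 0 to 1 in each direction. Median-of-ratios scaling gave 8 members higher in TA in vehicle mice and 5 higher in heart in D + Q mice, and no minimum fold change gave 5 for the latter. Of 320 alternative values of 17 log2 fold changes followed singly, 7 reversed. They were Lamb1 in TA (0.014 with labelled sex and among males, -0.62 to 0.12 over the leave-one-out fits, positive without D + Q replicate 3) and, with the atrial markers as covariate in heart, Itga2b (1.33), Itgb3 (1.42), Itgax (1.21) and Itgb8 (0.35). The cause was not tested. Replicate numbers are shared between groups, but same-numbered libraries deviated together little (mean correlation -0.12 in TA and 0.02 in heart). With the replicate block, 0 members were called in TA and 0 in heart, and 0 and 9 stood at an unadjusted p under 0.05 (2.43% and 11.9% of all genes). TPM limits what can be said of members near 0.5 TPM, since their read counts are unknown.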
